A study of Homo sapiens with 9 samples.

Results

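Aminoacyl-tRNA synthetases are the enzymes that load each amino acid onto its transfer RNA before the ribosome can use it. The 35 synthetase genes described here were taken by their current symbols, through the NCBI gene identifiers of the table, from 28395 genes in all. Of these, 19 encode cytosolic enzymes and 16 encode mitochondrial enzymes, and all 35 passed the filter of a mean of at least 50 counts that left 12695 genes for testing. RNA-seq was performed on 9 libraries from 3 human kidney lines, with 3 libraries per line. HK2 is a line of proximal tubule cells, labelled parental. 786-O is a clear cell renal cell carcinoma line, also labelled parental, and 786-M1A is its metastatic derivative. All 3 lines were grown stably in full Plasmax, a culture medium modelled on human plasma, without any treatment. HK2 was the only non-tumoral line and 786-M1A the only derivative, so each comparison sets 1 line against 1 other line, and p-values measure only the spread between cultures of a line.

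Cells keep 2 sets of synthetases. The cytosolic enzymes serve the ribosomes of the cytoplasm, and the mitochondrial enzymes, which are encoded in the nucleus and imported, serve the small set of proteins made inside mitochondria. Several cytosolic enzymes are bound in a large multisynthetase complex, while the others act outside it. The enzymes also fall into class I and class II by the fold of their catalytic domain. *GARS1* and *KARS1* each supply both the cytosolic and the mitochondrial enzyme from 1 gene, *EPRS1* encodes a fusion of the glutamyl and prolyl enzymes, and *FARSA* and *FARSB* encode the subunits of the cytosolic phenylalanyl enzyme. When amino acids run short, uncharged tRNA activates the kinase EIF2AK4 (GCN2), and the transcription factor ATF4 then raises the transcription of many cytosolic synthetase genes.

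The promoters of some cytosolic synthetase genes carry the letters of the element that ATF4 binds with C/EBP partners. The motif TGATGNAA was searched on both strands in RefSeq windows (GRCh38.p14) from 250 bases before to 50 bases after each listed start, which were matched for 30 of the 35 genes (none for *VARS1*, *AARS2*, *LARS1*, *YARS1* and *VARS2*). It was present in 7 of 16 cytosolic genes (43.8%) and in 1 of 14 mitochondrial genes (7.14%), against 266 of 10191 tested genes with a window (2.61%) and 3.62% of all 35097 windows. The other 9 cytosolic genes with a window had no match, and the difference between the compartments was not tested. The stretches below are shown because they hold every match found, a feature that the member list did not use. They run 5′ to 3′ on the strand of the gene, with the motif or its reverse complement in capitals.
AARS1, chr16:70289675-70289704, minus strand: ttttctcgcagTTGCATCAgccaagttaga
CARS1, chr11:3057407-3057436, minus strand: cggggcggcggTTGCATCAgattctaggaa
GARS1, chr7:30594834-30594863, plus strand: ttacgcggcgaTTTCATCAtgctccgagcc
IARS1, chr9:92293692-92293721, minus strand: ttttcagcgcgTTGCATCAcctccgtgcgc
MARS1, chr12:57488053-57488082, plus strand: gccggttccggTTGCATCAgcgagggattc
NARS1, chr18:57621804-57621833, minus strand: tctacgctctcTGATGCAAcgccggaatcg
TARS1, chr5:33440956-33440985, plus strand: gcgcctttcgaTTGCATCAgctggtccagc
YARS2, chr12:32756076-32756105, minus strand: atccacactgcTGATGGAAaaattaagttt

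The matches began close to a listed start in several genes, at 2 bases upstream in *CARS1*, 4 in *MARS1* and 13 in *IARS1*, and at 2 bases downstream in *TARS1*. In *AARS1* and *YARS2* they lay 187 and 197 bases upstream. The *GARS1* match lay in the second of its windows, 33 bases before that start. A match is a description of letters and not a binding site. In 1 more case the promoter itself is shared: *HARS1* and *HARS2*, the cytosolic and mitochondrial histidyl enzymes, are transcribed in opposite directions from either side of 84 bases by their RefSeq positions, in which the motif was not found. In GENCODE the annotated spans of these genes overlap on opposite strands. This stretch is shown because both genes were higher in both cancer lines, as described below.
HARS1 and HARS2, between the genes, chr5:140691371-140691454, plus strand: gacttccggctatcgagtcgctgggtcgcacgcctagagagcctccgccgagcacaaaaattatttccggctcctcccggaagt

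Library totals ranged from 30212291 to 45362428 counts, and the lowest count of any synthetase in any library was 267, so all could be tested. Precision was lower for the least counted genes. The SE of the log2 fold change in 786-O against HK2 was 0.079 for *PARS2*, beside 0.033 for *TARS1*. Levels are given as CPM, the counts of a gene scaled by the library total and its TMM factor, which corrects for composition. Libraries of 1 line had correlations of log2 CPM between 0.997 and 0.998, none stood apart from its line, and the biological coefficient of variation was 3.93%. Markers of the labelled cell types were mixed. *PAX8* was present in all 3 lines at means of 165 to 182 CPM, while *LRP2* had 0 counts in every library, *CUBN* stayed at 49 counts or fewer, and *CA9*, a marker of clear cell carcinoma, had at most 3. *PTPRC* of leukocytes had 0 counts in all libraries and *PECAM1* and *VWF* of endothelium had at most 3. Of the fibroblast and pericyte markers, *DCN* had at most 7 counts, whereas *COL1A1* had a mean of 292 CPM in 786-O and *PDGFRB* of 282 CPM in 786-M1A. The part of these differences in the synthetase values was not tested.

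The plot of all 35 genes by library shows how closely the replicates lay together.

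**Figure D1:**
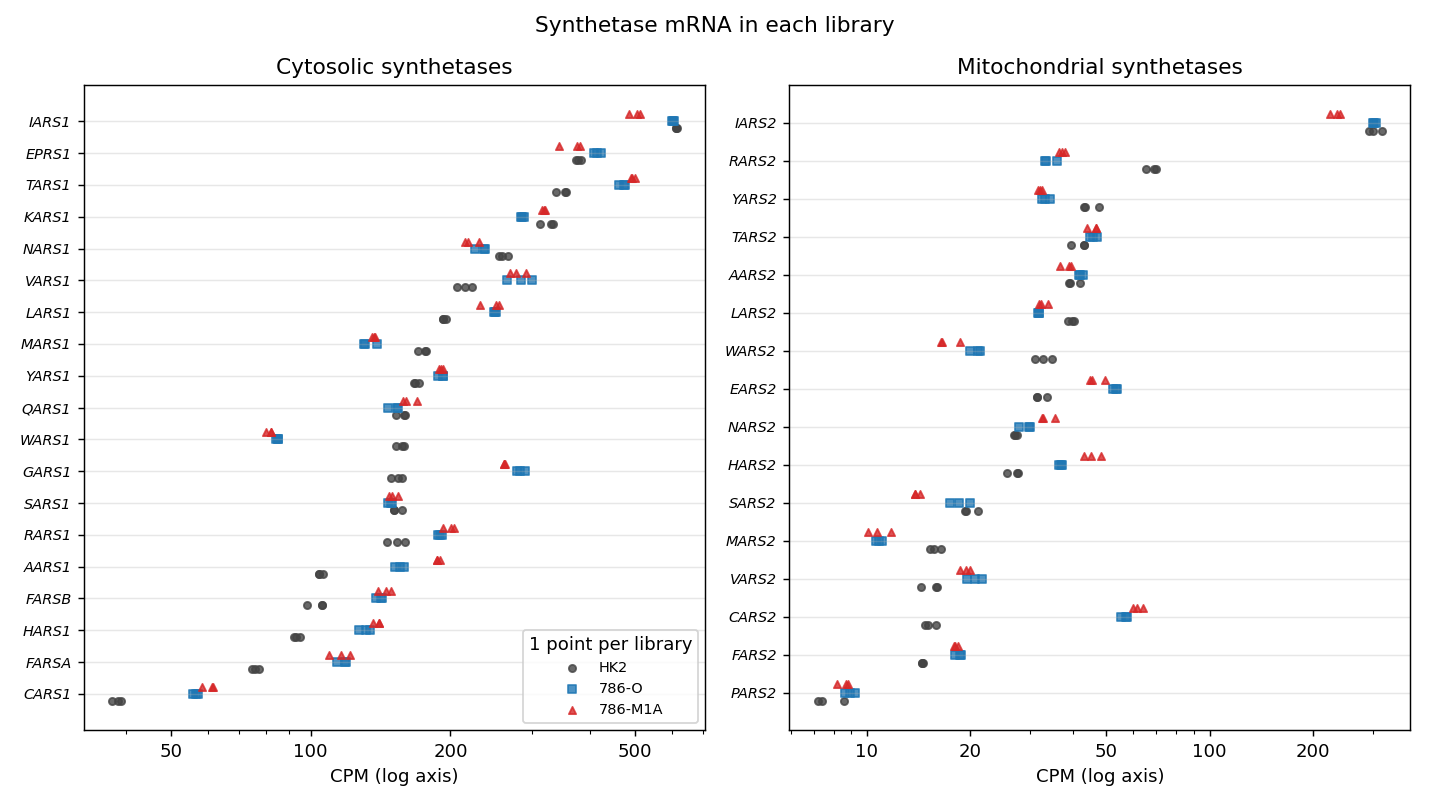
CPM on a log axis (x axis) of each synthetase gene (y axis, ordered by its HK2 mean), with cytosolic and mitochondrial genes apart, 1 point per library and 1 colour and symbol per line. The *CARS2* libraries of both tumour lines lie between 55.1 and 63.9 CPM, far right of the HK2 libraries at 14.7 to 15.95 CPM, and those of *WARS1* and *RARS2* lie to the left of HK2.

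The first comparison was between the cancer line 786-O and HK2. Of the 19 cytosolic synthetase genes, 12 were higher, 4 were lower and 3 did not pass the test (edgeR quasi-likelihood test, Benjamini-Hochberg adjusted over all 12695 genes, threshold 0.05). Of the 16 mitochondrial genes, 7 were higher, 5 were lower and 4 did not pass. The lines differ in most genes: 84.2% of all tested genes were called, 41.6% as higher and 42.6% as lower, so being called is no particular property of a synthetase. The median log2 fold change was 0.31 over the cytosolic genes and 0.09 over the mitochondrial genes, beside -0.01 over all genes tested. The changes were moderate, and only *CARS2* passed a 2-fold difference, upwards. Over all genes 22.3% did, 9.18% upwards and 13.1% downwards.

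786-M1A compared with HK2 gave a similar split. Of the cytosolic genes, 11 were higher, 4 were lower and 4 did not pass, and of the mitochondrial genes 7 were higher, 7 lower and 2 did not pass, while 84.9% of all genes were called, 41.6% as higher and 43.3% as lower. Again *CARS2* alone passed a 2-fold difference, upwards, beside 25.4% of all genes, 10.4% upwards and 15.0% downwards. The median log2 fold change was 0.34 for the cytosolic and 0.03 for the mitochondrial genes, against -0.02 for all genes. Both comparisons use the same 3 HK2 libraries and are not independent of each other. In each of them the exact two-sided permutation test of 3 against 3 libraries cannot go below p = 0.1, which was the value for every gene whose libraries did not overlap. There were 31 such genes for 786-O and 29 for 786-M1A, beside 85.5% and 85.0% of all genes.

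**Figure D2:**
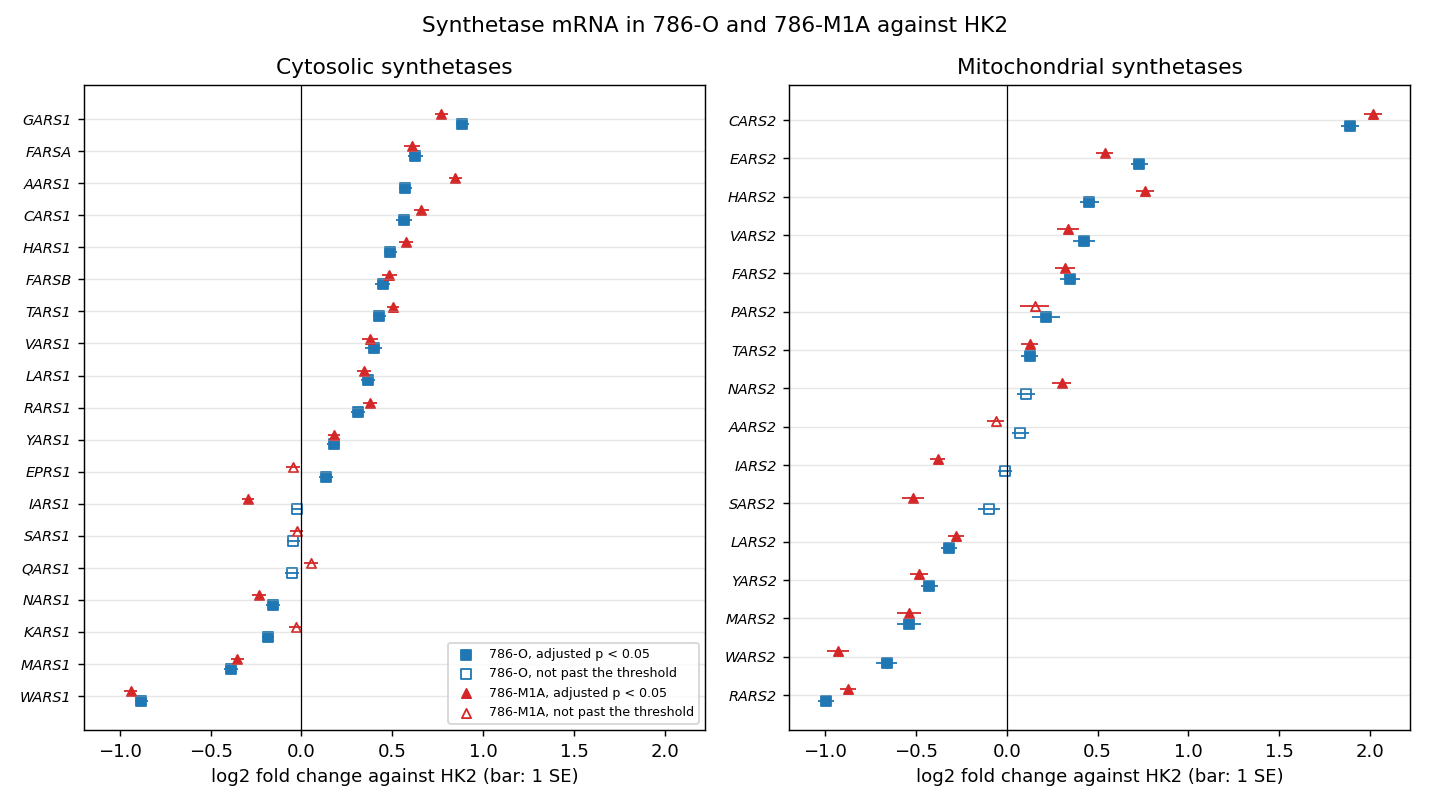
Log2 fold change against HK2 of each synthetase gene in 786-O and in 786-M1A, with error bars of 1 SE from the edgeR fit and filled points for genes past the threshold. Most cytosolic genes lie above 0 in both lines, while the mitochondrial genes spread from -0.99 for *RARS2* to 2.02 for *CARS2*.

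Among cytosolic genes outside the multisynthetase complex, 9 of 12 were higher in 786-O and 2 were lower, with a median log2 fold change of 0.44. In 786-M1A the same counts were 9 and 2, with a median of 0.49. Over all tested genes, 41.6% were higher and 42.6% lower in 786-O, and 41.6% and 43.3% in 786-M1A. *GARS1*, the glycyl enzyme of both compartments, measured 149, 154 and 157 CPM in the HK2 libraries, 290, 278 and 283 CPM in 786-O, and 261, 261 and 263 CPM in 786-M1A. All tumour libraries were above all HK2 libraries, and 786-O was above 786-M1A. The log2 fold change was 0.88 (SE 0.035, edgeR adjusted p = 6.27e-16) in 786-O and 0.77 (SE 0.035, edgeR adjusted p = 6.94e-15) in 786-M1A.

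*AARS1*, the alanyl enzyme, measured 104, 104 and 106 CPM in HK2, 159, 156 and 152 CPM in 786-O, and 187, 190 and 187 CPM in 786-M1A. The 3 lines did not overlap and stood in the order HK2, 786-O, 786-M1A. It was higher than in HK2 by 0.57 on the log2 scale (SE 0.036, edgeR adjusted p = 2.03e-12) in 786-O and 0.84 (SE 0.036, edgeR adjusted p = 1.58e-15) in 786-M1A. *FARSA*, the catalytic subunit of the phenylalanyl enzyme, had 74.8, 77.2 and 75.7 CPM in HK2, 119, 119 and 114 CPM in 786-O, and 121, 116 and 110 CPM in 786-M1A. The tumour lines overlapped each other and lay above HK2, by 0.63 (edgeR adjusted p = 7.53e-12) and 0.61 (edgeR adjusted p = 1.2e-11) on the log2 scale. Its partner subunit *FARSB* was higher by 0.45 and 0.48, and the ratio of *FARSB* to *FARSA* counts was 1.36 ± 0.0426 for HK2, 1.20 ± 0.0462 for 786-O and 1.25 ± 0.104 for 786-M1A (SD, n = 3).

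*CARS1*, the cysteinyl enzyme, measured 38.4, 39.1 and 37.4 CPM in HK2, 57.2, 56.7 and 55.8 CPM in 786-O, and 61.6, 61.4 and 58.4 CPM in 786-M1A. Both tumour lines lay above HK2 without overlap, by 0.56 and 0.66 on the log2 scale (edgeR adjusted p = 5.61e-11 and 3.27e-12). *TARS1* (threonyl), *HARS1* (histidyl) and *YARS1* (tyrosyl) were also higher in both tumour lines, with log2 fold changes of 0.43, 0.49 and 0.18 in 786-O and of 0.50, 0.57 and 0.18 in 786-M1A. *VARS1*, the valyl enzyme, had 215, 207 and 222 CPM in HK2, 299, 283 and 265 CPM in 786-O, and 291, 276 and 269 CPM in 786-M1A. It was higher by 0.40 (edgeR adjusted p = 3.89e-08) and 0.38 (edgeR adjusted p = 8.21e-08), and the libraries of the tumour lines were interleaved.

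The tryptophanyl gene *WARS1* went the other way. It measured 157, 153 and 159 CPM in HK2, 85.2, 84.0 and 85.1 CPM in 786-O, and 82.3, 82.1 and 80.0 CPM in 786-M1A. Every HK2 library was far above every tumour library, and the log2 fold change was -0.88 (SE 0.037, edgeR adjusted p = 1.39e-15) in 786-O and -0.94 (SE 0.037, edgeR adjusted p = 4.23e-16) in 786-M1A. *WARS1* is induced by interferon-gamma. Of other genes listed for that response, *GBP2* had log2 fold changes of -1.67 and -2.01 in 786-O and 786-M1A against HK2, whereas *IRF1* was higher by 0.34 and 0.27. *NARS1*, the asparaginyl enzyme, was the other gene outside the complex that fell, by 0.16 and 0.23 on the log2 scale. *SARS1*, the seryl enzyme, passed the test in none of the 3 comparisons (only with upper-quartile scaling in 786-O, edgeR adjusted p = 0.0361), with means of 153 ± 3.53, 148 ± 1.39 and 150 ± 3.25 CPM (SD, n = 3) in HK2, 786-O and 786-M1A.

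The 7 enzymes of the multisynthetase complex showed no common direction. In 786-O, 3 were higher, 2 were lower and 2 were not called, with a median log2 fold change of -0.02, and in 786-M1A 2 were higher and 2 lower with a median of -0.03. Their summed level was 1992 ± 21.8 CPM for HK2, 2028 ± 8.73 CPM for 786-O and 1927 ± 47.2 CPM for 786-M1A (SD, n = 3). The difference between genes inside and outside the complex was not tested. Shares over all tested genes were 41.6% higher and 42.6% lower in 786-O, and 41.6% and 43.3% in 786-M1A. *LARS1*, the leucyl enzyme, measured 192, 195 and 193 CPM in HK2, 249, 250 and 249 CPM in 786-O, and 232, 250 and 254 CPM in 786-M1A. All tumour libraries exceeded HK2, by 0.37 (edgeR adjusted p = 8.95e-09) and 0.34 (edgeR adjusted p = 2.32e-08) on the log2 scale, and the tumour lines overlapped.

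*MARS1*, the methionyl enzyme of the complex, was lower in both tumour lines. It had 176, 170 and 177 CPM in HK2, 139, 131 and 130 CPM in 786-O, and 137, 137 and 136 CPM in 786-M1A. The HK2 libraries were the 3 highest, with log2 fold changes of -0.39 (edgeR adjusted p = 3.59e-09) and -0.35 (edgeR adjusted p = 1.59e-08). *RARS1*, the arginyl enzyme, was higher by 0.31 and 0.38. *QARS1*, the glutaminyl enzyme, did not pass the test against HK2, with log2 fold changes of -0.05 in 786-O and 0.05 in 786-M1A.

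In 3 genes of the complex the call against HK2 was made in 1 tumour line and not in the other. *KARS1*, the lysyl enzyme of both compartments, measured 312, 332 and 329 CPM in HK2, 288, 284 and 286 CPM in 786-O, and 315, 320 and 317 CPM in 786-M1A. 786-O lay below both other lines, by 0.18 against HK2 (edgeR adjusted p = 4.39e-05), while the 786-M1A libraries fell within the range of HK2. With upper-quartile scaling *KARS1* was called lower than HK2 in 786-M1A too (log2 fold change -0.08, edgeR adjusted p = 0.0403). *EPRS1* had 373, 382 and 376 CPM in HK2, 408, 422 and 413 CPM in 786-O, and 342, 374 and 380 CPM in 786-M1A. It was higher in 786-O by 0.14 (edgeR adjusted p = 0.00237) and overlapped HK2 in 786-M1A, where the lowest library was replicate 1. With upper-quartile scaling it was called lower in 786-M1A (log2 fold change -0.09, edgeR adjusted p = 0.0278). *IARS1*, the isoleucyl enzyme, measured 612, 615 and 613 CPM in HK2, 605, 604 and 601 CPM in 786-O, and 484, 505 and 511 CPM in 786-M1A. HK2 and 786-O differed by 0.02 on the log2 scale (edgeR adjusted p = 0.5), and 786-M1A lay below HK2 with a log2 fold change of -0.29 (SE 0.032, edgeR adjusted p = 2.59e-08).

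By structural class, 5 of the 9 cytosolic class I genes and 6 of the 9 class II genes were higher in 786-O, and 2 of each class were lower. In 786-M1A, 5 class I and 6 class II genes were higher, and 3 and 1 were lower. *EPRS1*, which holds an enzyme of each class, was left out of this count. Beside the counts by class and by motif, 41.6% of all tested genes were higher and 42.6% lower in 786-O. In 786-M1A these shares were 41.6% and 43.3%. Differences between the classes, and between genes with and without the motif, were not tested. The cytosolic genes with the ATF4 motif had a median log2 fold change of 0.43 in 786-O with 4 of 7 higher, and those without it of 0.14 with 5 of 9 higher. *GARS1* and *AARS1* carried the motif and rose, whereas *MARS1* and *NARS1* carried it and fell, so the motif did not go with 1 direction.

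Among the mitochondrial enzymes the largest difference of all 35 genes was that of *CARS2*, the cysteinyl enzyme (chromosome 13, 110641410 to 110713522). It measured 15.1, 15.95 and 14.7 CPM in HK2, 57.0, 55.1 and 57.6 CPM in 786-O, and 63.9, 61.4 and 60.0 CPM in 786-M1A. Every tumour library was more than 3 times the highest HK2 library. The level was 3.71-fold higher in 786-O (log2 1.89, SE 0.049, edgeR adjusted p = 3.39e-19) and 4.05-fold higher in 786-M1A (log2 2.02, SE 0.050, edgeR adjusted p = 9.74e-20). Counts of *CARS2* per count of *CARS1* went from 0.399 ± 0.00810 in HK2 to 1.00 ± 0.0306 in 786-O and 1.02 ± 0.0191 in 786-M1A (SD, n = 3). *ING1*, which overlaps *CARS2* on the opposite strand, was higher by 0.54 and 0.71 on the log2 scale, at means of 11.9, 17.3 and 19.4 CPM.

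*EARS2*, the glutamyl enzyme, had 33.7, 31.4 and 31.3 CPM in HK2, 53.7, 52.3 and 53.4 CPM in 786-O, and 44.7, 49.4 and 45.4 CPM in 786-M1A. The 3 lines did not overlap, and the log2 fold change against HK2 was 0.73 (edgeR adjusted p = 5.44e-12) in 786-O and 0.54 (edgeR adjusted p = 1.17e-09) in 786-M1A. Its neighbours *UBFD1* and *GGA2*, which overlap it and had more counts, changed by 0.22 and -0.66 in 786-O against HK2, and by -0.20 and 0.17 in 786-M1A against 786-O. *HARS2* measured 27.4, 27.7 and 25.6 CPM in HK2, 36.5, 37.1 and 36.9 CPM in 786-O, and 43.0, 45.2 and 48.1 CPM in 786-M1A. Like *AARS1*, it rose from HK2 to 786-O and again to 786-M1A without overlap, with log2 fold changes against HK2 of 0.45 (edgeR adjusted p = 3.47e-08) and 0.76 (edgeR adjusted p = 5.08e-12). *HARS1*, which overlaps it in GENCODE, had 42825 counts in all against 12833 for *HARS2*. *ZMAT2*, which also overlaps it, changed by 0.09 and 0.04 against HK2. *VARS2*, the valyl enzyme, was higher by 0.43 (edgeR adjusted p = 1.15e-06) and 0.34 (edgeR adjusted p = 3.13e-05), with means of 15.4 ± 0.905, 20.7 ± 0.997 and 19.4 ± 0.643 CPM (SD, n = 3).

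*FARS2* (phenylalanyl) and *TARS2* (threonyl) were higher in both tumour lines by smaller amounts, 0.35 and 0.13 in 786-O and 0.32 and 0.13 in 786-M1A. *PARS2*, the prolyl enzyme and the least counted member, passed against HK2 for 786-O, by 0.22 on the log2 scale, and not for 786-M1A. The calls of *TARS2* and *PARS2* did not hold in every alternative analysis, as given in the closing section. *NARS2*, the asparaginyl enzyme, was at 27.0, 27.5 and 26.8 CPM in HK2, 27.9, 30.02 and 29.7 CPM in 786-O, and 35.3, 32.7 and 32.3 CPM in 786-M1A. Against HK2, 786-M1A was higher by 0.30 (SE 0.051, edgeR adjusted p = 1.1e-05). The value for 786-O, 0.11 on the log2 scale (edgeR adjusted p = 0.0598), was called with no filter on low counts (adjusted p = 0.0324) and without 786-O replicate 1 (adjusted p = 0.0283).

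The mitochondrial arginyl gene *RARS2* showed the largest decrease of the 35 genes in 786-O. It measured 65.1, 68.7 and 70.0 CPM in HK2, 33.1, 33.3 and 35.9 CPM in 786-O, and 37.9, 36.3 and 37.2 CPM in 786-M1A. The log2 fold change was -0.99 (SE 0.046, edgeR adjusted p = 1.07e-14) in 786-O and -0.87 (SE 0.046, edgeR adjusted p = 9.53e-14) in 786-M1A, and no tumour library reached the range of HK2. *WARS2*, the mitochondrial tryptophanyl enzyme, had 30.9, 32.7 and 34.8 CPM in HK2, 20.01, 21.1 and 21.3 CPM in 786-O, and 16.6, 18.7 and 16.5 CPM in 786-M1A. It was the only synthetase called lower in each of the 3 comparisons, with log2 fold changes against HK2 of -0.66 (edgeR adjusted p = 7.1e-10) and -0.93 (edgeR adjusted p = 3.07e-12).

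*MARS2*, the methionyl enzyme, which also charges the initiator tRNA of mitochondria, had 16.5, 15.2 and 15.7 CPM in HK2, 11.1, 10.8 and 10.6 CPM in 786-O, and 10.1, 11.8 and 10.7 CPM in 786-M1A. It was lower by 0.54 on the log2 scale in both tumour lines (edgeR adjusted p = 1.76e-07 and 2.08e-07), which overlapped each other. *LARS2*, the leucyl enzyme, was at 40.3, 38.7 and 39.6 CPM in HK2, 31.7, 31.9 and 31.6 CPM in 786-O, and 31.8, 32.3 and 33.7 CPM in 786-M1A. HK2 was above both tumour lines, with log2 fold changes of -0.32 (edgeR adjusted p = 1.13e-06) and -0.28 (edgeR adjusted p = 7.03e-06). *YARS2*, the tyrosyl enzyme, fell by 0.43 and 0.48 on the log2 scale. *DNM1L*, which overlaps *YARS2* and had more counts than it, was lower by 0.20 and 0.23.

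*IARS2* and *SARS2*, the isoleucyl and seryl enzymes, were lower in 786-M1A than in both other lines. *IARS2* measured 300, 319 and 292 CPM in HK2, 299, 302 and 305 CPM in 786-O, and 225, 236 and 240 CPM in 786-M1A. HK2 and 786-O overlapped, and 786-M1A was below HK2 with a log2 fold change of -0.38 (SE 0.039, edgeR adjusted p = 6.81e-09). *SARS2* was at 19.4, 21.1 and 19.5 CPM in HK2, 19.9, 18.6 and 17.5 CPM in 786-O, and 13.9, 14.3 and 13.8 CPM in 786-M1A. Against HK2 it changed by -0.10 on the log2 scale (edgeR adjusted p = 0.131) in 786-O and -0.52 (SE 0.062, edgeR adjusted p = 1.12e-07) in 786-M1A. The 786-O value was called lower with upper-quartile scaling (edgeR adjusted p = 0.0380) and without 786-O replicate 1 (edgeR adjusted p = 0.04004). *AARS2*, the alanyl enzyme, did not pass against HK2 in either line.

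For most amino acids a cytosolic and a mitochondrial enzyme could be set side by side, which gave 17 pairs, with *FARS2* and *EPRS1* entering in 2 pairs each. In 786-O against HK2, both enzymes of a pair were higher in 8 and both lower in 2. The cytosolic enzyme was higher and the mitochondrial enzyme lower in 3, those for arginine, leucine and tyrosine. In the other pairs 1 or both enzymes were not called. For tryptophan both genes fell, *WARS1* and *WARS2*, and for methionine both fell, *MARS1* and *MARS2*. In 786-M1A against HK2, 6 pairs were both higher and 3 were both lower. The cytosolic enzyme was again higher and the mitochondrial enzyme lower in 3, those for arginine, leucine and tyrosine. The opposite arrangement, a lower cytosolic and a higher mitochondrial enzyme, appeared in 1, that for asparagine. Pairs were formed only among synthetases, so these counts have no share over all genes beside them.

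**Figure D3:**
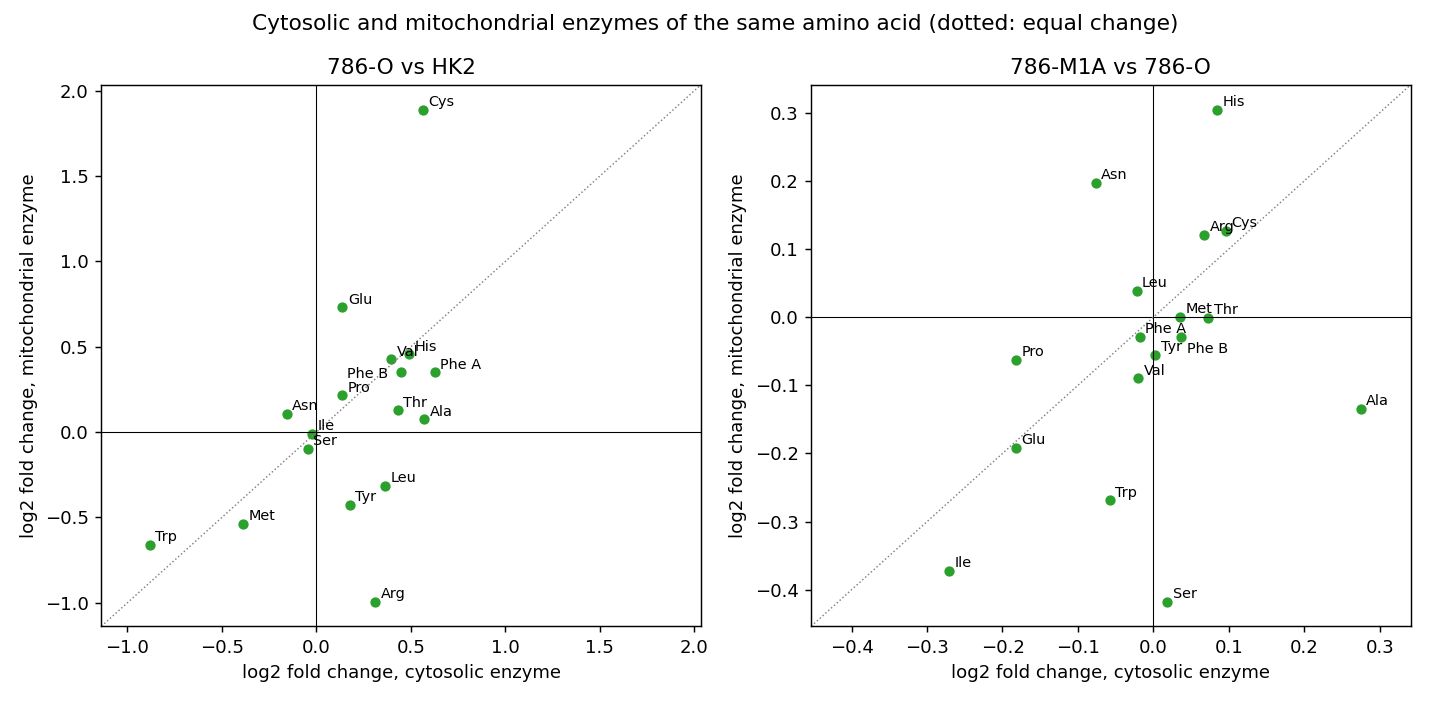
Log2 fold change of the cytosolic (x axis) and the mitochondrial (y axis) enzyme for each amino acid, in 786-O against HK2 (left) and 786-M1A against 786-O (right). Phe A and Phe B stand for *FARSA* and *FARSB* against *FARS2*, and the dotted line marks equal change. Against HK2 cysteine stands apart at the top, arginine lies at the lower right, and tryptophan and methionine lie at the lower left. Between the tumour lines isoleucine and glutamate lie at the lower left and alanine at the lower right.

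For the branched-chain amino acids, of which the study followed leucine and isoleucine with labelled nitrogen and carbon, the enzymes did not move as 1 group. The cytosolic leucyl and valyl genes *LARS1* and *VARS1* rose in both tumour lines, and *IARS1* did so in neither. In the mitochondrial set *VARS2* rose, *LARS2* fell and *IARS2* was lower in 786-M1A. The ratio of *IARS2* to *IARS1* counts was 0.496 ± 0.0216 for HK2, 0.501 ± 0.00691 for 786-O and 0.467 ± 0.00248 for 786-M1A (SD, n = 3). Both isoleucyl genes were lower in 786-M1A than in 786-O, with log2 fold changes of -0.27 for *IARS1* and -0.37 for *IARS2*.

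The third comparison, between 786-M1A and its parental line 786-O, addressed the change with metastatic selection. Here 3 of 19 cytosolic genes were higher, 3 were lower and 13 did not pass, and 4 of 16 mitochondrial genes were higher, 5 lower and 7 did not pass. Of all genes tested 56.0% were called, 27.9% as higher and 28.0% as lower. The median absolute log2 fold change was 0.07 over the cytosolic and 0.12 over the mitochondrial genes, beside 0.17 over all genes. No synthetase reached a 2-fold difference, beside 6.59% of all genes that did, 2.03% upwards and 4.55% downwards. Libraries of the lines did not overlap in 21 of the 35 genes, beside 61.6% of all genes.

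The decreases in 786-M1A were led by *SARS2* with a log2 fold change of -0.42 (SE 0.062, edgeR adjusted p = 7.38e-06), *IARS2* with -0.37 (SE 0.039, edgeR adjusted p = 4.18e-08), *IARS1* with -0.27 (SE 0.032, edgeR adjusted p = 3.56e-07) and *WARS2* with -0.27 (SE 0.062, edgeR adjusted p = 0.000937). Their values above show that every 786-M1A library was below every 786-O library for these 4 genes. *EARS2* and *EPRS1*, both of which charge glutamate, were lower by 0.19 (edgeR adjusted p = 0.00157) and 0.18 (edgeR adjusted p = 0.000365). *GARS1* and *AARS2* were lower by 0.12 and 0.13.

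The increases were led by *HARS2* with 0.30 (SE 0.049, edgeR adjusted p = 1.71e-05), *AARS1* with 0.27 (SE 0.035, edgeR adjusted p = 8.79e-07), *NARS2* with 0.20 (SE 0.050, edgeR adjusted p = 0.0021) and *KARS1* with 0.15 (SE 0.034, edgeR adjusted p = 0.000738). *CARS2*, *RARS2* and *QARS1* were higher by 0.13, 0.12 and 0.10. Of these 15 calls, 5, those of *GARS1*, *AARS2*, *CARS2*, *RARS2* and *QARS1*, were lost when certain single 786-O or 786-M1A libraries were left out, with edgeR adjusted p of up to 0.0560, 0.105, 0.0813, 0.129 and 0.142 in that order. Alanine was the 1 amino acid whose pair split in opposite directions here, with *AARS1* higher and *AARS2* lower.

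**Figure D4:**
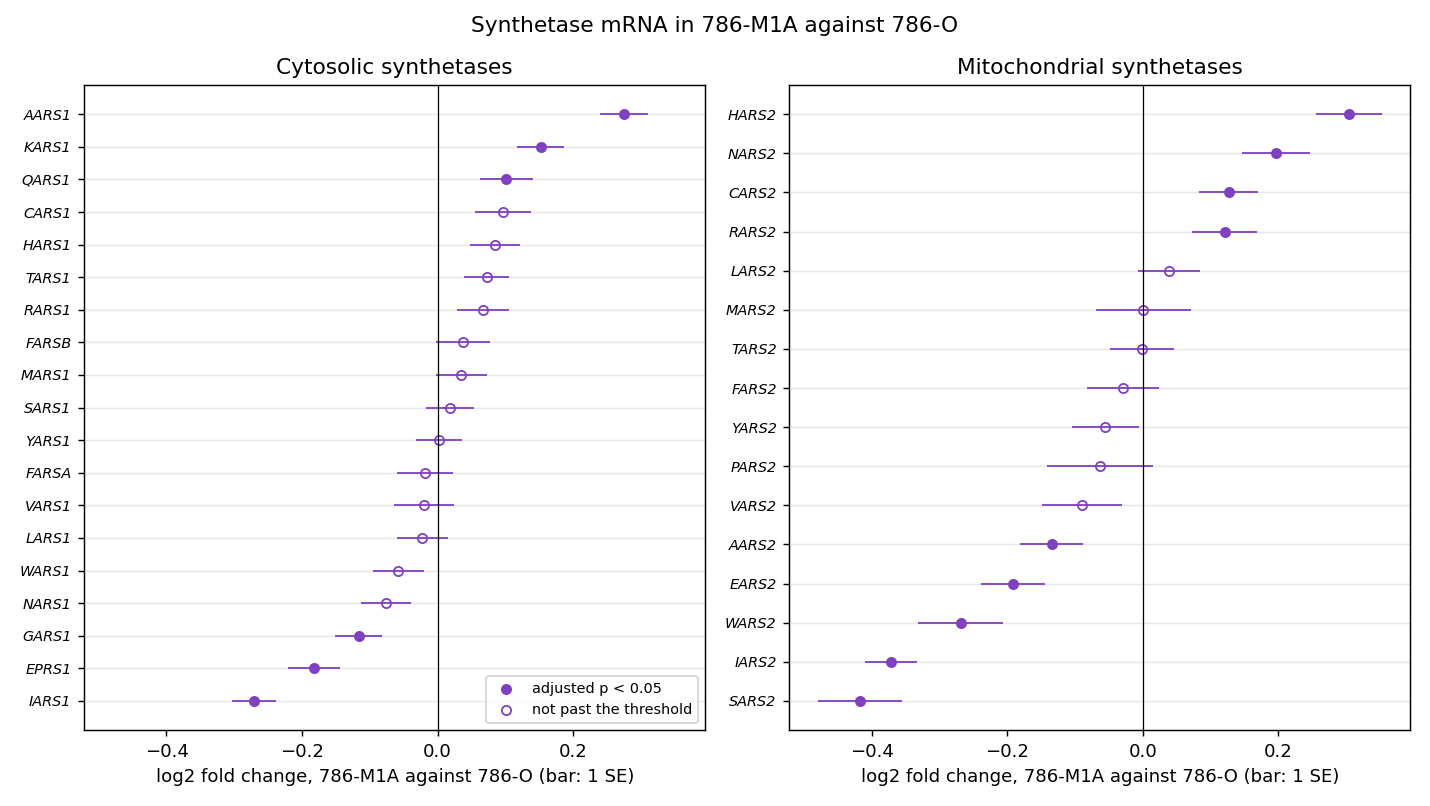
Log2 fold change of each synthetase gene in 786-M1A against 786-O, ordered by size in each compartment, with error bars of 1 SE and filled points for genes past the threshold. The values run from -0.42 for *SARS2* to 0.30 for *HARS2*, and 20 of the 35 genes are not called.

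Of the 35 genes, 25 were called against HK2 with the same sign in both tumour lines, beside 73.0% of all genes. Across the 3 comparisons, 12 genes were higher in both tumour lines with no call between them, among them *TARS1*, *LARS1*, *VARS1* and *FARSA*. Another 6 were lower in both with no call between them, *MARS1*, *NARS1*, *WARS1*, *LARS2*, *MARS2* and *YARS2*. *AARS1*, *CARS2* and *HARS2* were higher at each step. *RARS2* was lower in both lines than in HK2 and partly higher again in 786-M1A, and *GARS1* and *EARS2* were higher in both and partly lower again. With *EPRS1*, 3 of the 35 genes were higher in 786-O than in HK2 and lower in 786-M1A than in 786-O, beside 11.8% of all genes.

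Summed over the genes, the cytosolic synthetases took 3862 ± 44.3 CPM of HK2, 4321 ± 29.4 CPM of 786-O and 4252 ± 42.4 CPM of 786-M1A (SD, n = 3). Both tumour lines lay above HK2, with ratios of 1.12 and 1.10. The mitochondrial synthetases took 746 ± 17.6, 763 ± 6.19 and 695 ± 6.36 CPM (SD, n = 3), so 786-M1A was the lowest line, at a ratio of 0.910 to 786-O. Much of this sum is *IARS2*, whose mean was 304, 302 and 233 CPM. All 35 genes together made up 0.468% to 0.510% of the counts of a library. These are shares of a library, and RNA per cell was not measured.

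Levels of different genes were compared per kilobase of merged exons. The median level of the cytosolic genes was 54.2 CPM per kilobase for HK2, 61.2 for 786-O and 64.7 for 786-M1A, and that of the mitochondrial genes was 8.45, 9.07 and 8.23. *KARS1* was the highest in HK2 at 134 CPM per kilobase, ahead of *IARS1* at 129, while *TARS1* was the highest in 786-O at 160 and in 786-M1A at 168. *IARS2* stood far above the other mitochondrial genes, at 86.1, 85.6 and 66.1 CPM per kilobase in the 3 lines, and *CARS2* moved from 8.3 in HK2 to 30.8 in 786-O, the second highest of the mitochondrial set there. *PARS2* was the lowest gene in HK2 and *LARS2* in the tumour lines, although the order at the low end depends on the length used, since the *LARS2* merged exons span 10386 bases and its canonical transcript 4781.

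Cancer lines carry gains and losses of chromosome segments, so each synthetase was set beside the tested genes within 5 Mb of it, members left out. Across the 35 genes, the log2 fold change of a synthetase and the median of its neighbours had a Pearson correlation of 0.468 and a Spearman correlation of 0.482 in 786-O against HK2, and of 0.452 and 0.507 in 786-M1A. These are descriptions across genes, which share libraries and, for several members, overlapping neighbourhoods. Among these are *HARS1*, *HARS2* and *LARS1*, *EPRS1* and *IARS2*, *VARS1* and *VARS2*, *LARS2* and *QARS1*, and *AARS1* and *KARS1*. In 786-M1A against 786-O the Pearson and Spearman values over the 35 genes were 0.235 and 0.166. By compartment, the Pearson correlation in 786-O against HK2 was 0.647 for cytosolic and 0.335 for mitochondrial genes. It was 0.491 and 0.412 in 786-M1A against HK2, and 0.195 and 0.299 in 786-M1A against 786-O. The same correlation over all tested genes was not computed.

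*RARS2*, on chromosome 6, lay among 30 neighbours with a median log2 fold change of -0.65 in 786-O and -0.72 in 786-M1A. For *WARS1*, on chromosome 14, the 54 neighbours had medians of -0.51 and -0.40. *TARS1*, *HARS1* and *LARS1* on chromosome 5 had neighbours with medians of 0.64, 0.49 and 0.42 in 786-O, close to or above the change of the synthetase itself. *CARS2*, by contrast, had 28 neighbours with medians of 0.08 and 0.11 beside its own 1.89 and 2.02, and *AARS1* rose beside 102 neighbours with medians of -0.18 and -0.06. *EPRS1* and *IARS2* lie next to each other on chromosome 1, and in 786-M1A against 786-O their 31 neighbours had a median of -0.23, beside -0.18 and -0.37 for the pair. *IARS1* and *SARS2* fell in that comparison beside neighbours with medians of 0.19 and 0.02. Copy number was not measured, and its part in these values was not tested.

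**Figure D5:**
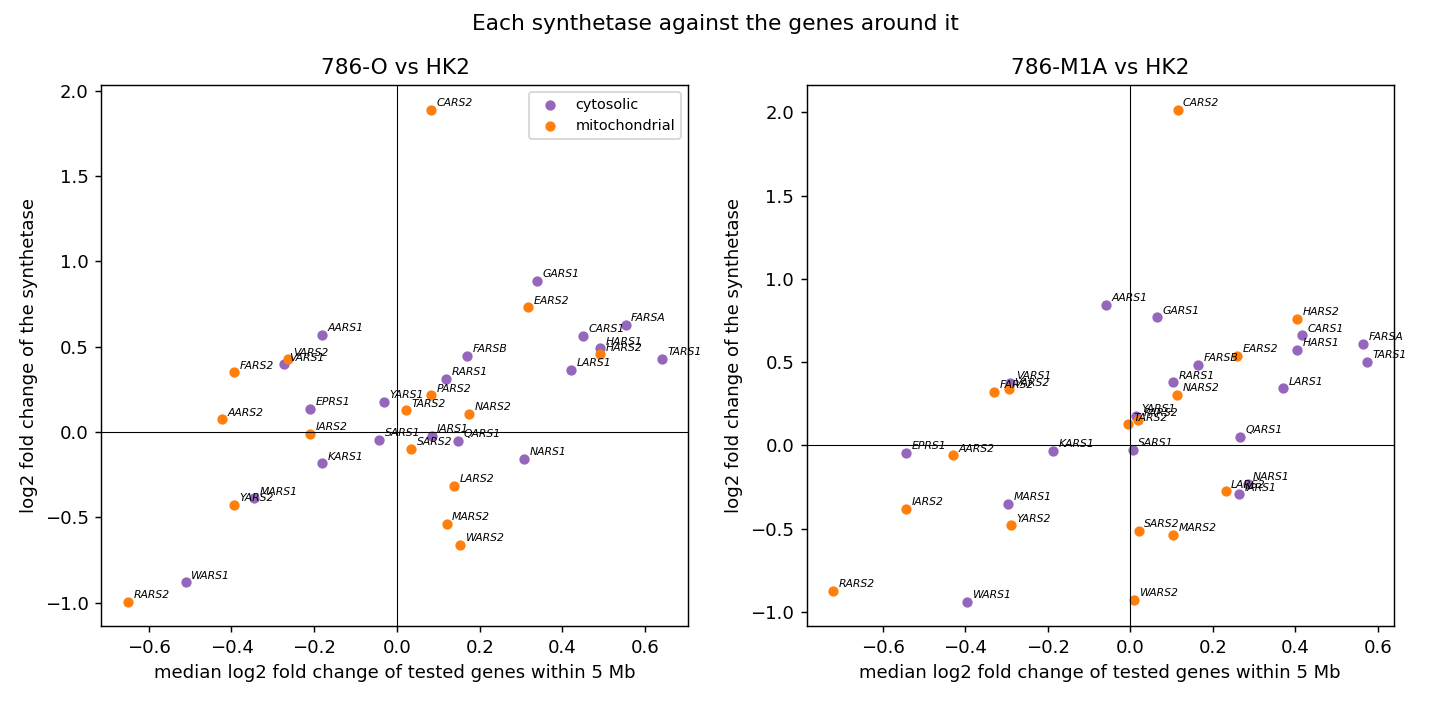
Log2 fold change of each synthetase gene (y axis) against the median log2 fold change of the tested genes within 5 Mb of it (x axis), for 786-O (left) and 786-M1A (right) against HK2, coloured by compartment. *CARS2* lies far above its neighbours against HK2, while *RARS2* lies low together with its own.

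Other genes of tRNA charging were read from fixed lists. Beside their counts, 41.6% of all tested genes were higher and 42.6% lower in 786-O against HK2. In 786-M1A against HK2 these shares were 41.6% and 43.3%. Of the 3 scaffold proteins of the multisynthetase complex, *AIMP1* and *AIMP2* were higher in 786-O and *EEF1E1* was lower, with means of 20.4 ± 1.28, 12.4 ± 0.844 and 12.0 ± 0.980 CPM (SD, n = 3) in HK2, 786-O and 786-M1A. Of the proofreading factors *AARSD1* had at most 3 counts in a library and was not tested, while the other 3 were 1 higher and 2 lower in both lines. *ANKRD16*, a partner of the alanyl enzyme in proofreading, was the higher one, by 1.12 and 1.11 on the log2 scale, and *DTD1* and *DTD2*, which remove wrongly charged amino acids from tRNA, were the lower ones. Of the 4 tRNA maturation and export genes, 1 was higher and 2 lower in 786-O and 2 were higher and 2 lower in 786-M1A, with *TRNT1*, the enzyme that adds the CCA end, at -0.70 and -0.71.

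Genes that act beside the mitochondrial synthetases went in both directions. Of 7 genes of mitochondrial amidation, formylation and elongation, 5 were lower and 2 higher in 786-O, and 4 were lower and 1 higher in 786-M1A. Of all tested genes, 42.6% were lower in 786-O and 43.3% in 786-M1A, and the difference was not tested. *TUFM* was higher in both lines, by 0.24 and 0.37 on the log2 scale. *GATB*, a subunit of the amidotransferase that makes mitochondrial glutaminyl-tRNA, measured 37.3, 40.5 and 36.2 CPM in HK2, 16.7, 15.9 and 16.2 CPM in 786-O, and 14.7, 15.3 and 14.8 CPM in 786-M1A. Both tumour lines were below HK2 without overlap, by 1.23 and 1.34 on the log2 scale, and the other subunits *GATC* and *QRSL1* were lower too. This complex corrects the glutamyl-tRNA that *EARS2* makes, and *EARS2* was higher. *MTFMT*, which formylates the methionyl-tRNA made by *MARS2*, was higher by 0.48 on the log2 scale in 786-O than in HK2 and lower by 0.39 in 786-M1A than in 786-O.

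Selenocysteine has no synthetase of its own and is made on tRNA charged with serine by *SARS1*. Both listed genes of that route were lower in both tumour lines. *PSTK*, the kinase, had 15.2, 16.4 and 16.6 CPM in HK2, 3.45, 3.29 and 3.83 CPM in 786-O, and 3.74, 3.57 and 4.02 CPM in 786-M1A, with log2 fold changes of -2.19 and -2.09. *SEPSECS*, which completes the conversion, was at -0.97 and -1.16, while *SARS1* itself was not called. Of the 5 listed cytosolic elongation factor genes, 4 were lower and 1 higher in 786-O. *EEF1A2* fell in both comparisons with HK2, by 1.19 and 1.93 on the log2 scale, and by 0.73 in 786-M1A against 786-O.

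The 8 listed genes of the amino acid response did not rise together in the tumour lines. In 786-O, 3 were higher and 5 lower than in HK2, and in 786-M1A 3 were higher, 3 lower and 2 not called. *EIF2AK4*, the sensor of uncharged tRNA, was higher by 0.81 and 0.93 on the log2 scale. *ATF4* measured 249, 267 and 262 CPM in HK2, 236, 228 and 221 CPM in 786-O, and 264, 255 and 261 CPM in 786-M1A, so that 786-O was the lowest line. Between 786-M1A and 786-O, 5 of the 8 were higher and 2 lower, with *TRIB3* at 0.55 and *ASNS*, the asparagine synthetase, at 0.20 among the higher and *CHAC1* at -0.68 and *DDIT3* at -0.35 the lower. In that comparison the 7 cytosolic synthetase genes with the motif were 1 higher, *AARS1*, and 2 lower, *GARS1* and *IARS1*. Beside both counts, 27.9% of all tested genes were higher and 28.0% lower in 786-M1A against 786-O.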

How the data were processed

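RNA was extracted from HK2, 786-O and 786-M1A cells, and libraries were prepared with the TruSeq Stranded mRNA kit. Per the labels and the study's methods, the authors aligned reads to GRCh38 and counted them per NCBI gene with featureCounts, and the deposited table holds these raw counts of 28395 genes in 9 libraries, 3 per line. The strand setting of the counting is not given in the sources used here. Of the 35 members, 19 overlap another gene of the table, and reads of such pairs may be lost or assigned to the partner.

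The test covered genes averaging 50 counts or more and was made with edgeR 4.0.16 (TMM, robust quasi-likelihood test, 1 fit of all libraries, no covariates, R 4.3.3), with Benjamini-Hochberg adjustment over 12695 genes and a threshold of 0.05. CPM are counts scaled by library total and TMM factor. The fit was tested on simulated data. Genes with full statistics were the 3 largest called changes in each direction, compartment and comparison, members whose calls changed sign between comparisons, the branched-chain enzymes, *GARS1* and *KARS1*. *GATB*, *PSTK* and *ATF4* were given by library after their values were seen. Lengths came from GENCODE and promoters and positions from RefSeq. Alternatives were RLE and upper-quartile scaling, DESeq2 1.42.0, limma 3.58.1, other filters, fits of only the lines compared, a replicate block and leaving out each library. The members and lists were chosen with earlier results of these data known. Totals of 30212291 to 45362428 counts gave a 3-count floor of 0.0661 to 0.0993 CPM, which covers counting error only. Some genes of the marker and pathway lists are not reported here.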

Additional observations from a re-analysis of the deposited data

Results flagged for a closer look

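For 15 of the 35 genes the difference from HK2 was not the same in the 2 tumour lines, by the edgeR test of 786-M1A against 786-O. The difference of the log2 fold changes, 786-M1A minus 786-O, was positive for *HARS2* (0.30), *AARS1* (0.27), *NARS2* (0.20), *KARS1* (0.15), *CARS2* (0.13), *RARS2* (0.12) and *QARS1* (0.10). It was negative for *SARS2* (-0.42), *IARS2* (-0.37), *IARS1* (-0.27), *WARS2* (-0.27), *EARS2* (-0.19), *EPRS1* (-0.18), *AARS2* (-0.13) and *GARS1* (-0.12). In *RARS2* and *CARS2*, both tumour lines lay on the same side of HK2 and differed in size, whereas in *IARS1*, *IARS2* and *SARS2* the call against HK2 was made in 786-M1A and not in 786-O, although *SARS2* was also called lower in 786-O with upper-quartile scaling and without 786-O replicate 1. This share, 15 of 35, stands beside 56.0% of all genes called in that comparison. Groups of 3 libraries were too small for an outlier test.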

How the results depend on the processing

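Of the calls against HK2, 26 of 28 in 786-O and 28 of 29 in 786-M1A held in every alternative run, the exceptions being *PARS2* in 786-O (without HK2 replicate 2 or 3 or 786-O replicate 2, edgeR adjusted p of up to 0.0798) and *TARS2* in 786-O and 786-M1A (with upper-quartile scaling and without HK2 replicate 1, 786-O replicate 3 or 786-M1A replicate 3, up to 0.105 and 0.139). In 786-M1A against 786-O, 10 of 15 held. *GARS1* was lost without 786-O replicate 1, *QARS1* without 786-O replicate 2 or 3 or 786-M1A replicate 1, *AARS2* without 786-O replicate 2 or 786-M1A replicate 3, *CARS2* without 786-O replicate 2 or 786-M1A replicate 1, and *RARS2* with upper-quartile scaling and without 786-O replicate 1 or 2 or 786-M1A replicate 1 or 3. Genes not called were less stable, with 3 of 7 in 786-O and 2 of 6 in 786-M1A against HK2, and 16 of 20 between the tumour lines, staying uncalled in every alternative. Against HK2, upper-quartile scaling called *QARS1*, *SARS1* and *SARS2* lower in 786-O and *EPRS1*, *KARS1* and *AARS2* lower in 786-M1A, leaving out 786-O replicate 1 called *SARS2* and *NARS2* in 786-O, no filter called *NARS2* in 786-O, and leaving out HK2 replicate 1 called *PARS2* in 786-M1A (edgeR adjusted p = 0.0165). The cytosolic median log2 fold change was 0.27 in 786-O against HK2 with upper-quartile scaling, 0.33 with no filter, 0.30 with at least 10 counts in every library and 0.28 to 0.34 when leaving out single libraries. In 786-M1A it was 0.29 with upper-quartile scaling, 0.37 with no filter and 0.32 to 0.35 when leaving out libraries. The mitochondrial median was 0.048 and 0.11 in 786-O, and -0.015 and 0.061 in 786-M1A, with upper-quartile scaling and with no filter. Cytosolic genes called higher in 786-M1A against 786-O numbered 6 with RLE scaling and 5 with DESeq2, against 3, and mitochondrial ones 2 to 4 when leaving out libraries. Deviations of same-numbered libraries had correlations of 0.215, 0.074 and 0.110 between 786-O and 786-M1A and of -0.167 to 0.038 in the pairs with HK2. Not every pair exceeded 0.1, so the numbers were not taken to pair the samples. With the replicate block the count of cytosolic genes called higher in 786-M1A against 786-O was 5, with *CARS1* and *HARS1* added. Small uncalled changes crossed 0. *IARS2* in 786-O against HK2 was at 0.013 with no filter and at -0.036 to 0.029 when leaving out libraries. Against 786-O, *MARS2* in 786-M1A was at -0.0064 with upper-quartile scaling, -0.0029 with limma, -0.00030 with at least 10 counts and -0.061 to 0.051 when leaving out libraries, which moved *FARSA* from -0.054 to 0.020, *VARS1* from -0.065 to 0.032 and *LARS1* from -0.049 to 0.017. The cause was not tested. Each line is 1 line, so a difference between lines cannot be told apart from one between disease stages.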
